A study of Mus musculus with 12 samples.

Results

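The 37 genes described here encode the folding, quality-control and stress-sensing machinery of the endoplasmic reticulum (ER), the compartment in which secreted and membrane proteins are made. They were taken by symbol from a list of 37, and all 37 were found among the 24787 genes of the count tables and among the 14172 genes with enough counts to be tested. Liver RNA of C57Bl/6 mice was sequenced in 12 libraries from 3 groups of 4: normal diet (ND), high-fat diet plus vehicle (HFD), and high-fat diet plus MEC1 (HFD+MEC1). Both high-fat groups ate that diet for 2 months before they were split at random into vehicle and MEC1 arms, the latter dosed daily into the peritoneum at 0.5 mg/kg. MEC1 is known here only by its code name; the study's title names PROTACs, which recruit a ubiquitin ligase to a chosen protein, and mitophagy, the removal of mitochondria by autophagy. The labels used here give no genetic change, sex, age, dosing period or batch, and do not say whether ND mice were injected, so diet and injection cannot be told apart in comparisons with ND.

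Proteins that enter the ER through the Sec61 channel are folded by chaperones, by lectins that hold their sugar chains and by enzymes that form disulfide bonds, and misfolded proteins are pulled back into the cytosol for degradation. When unfolded proteins accumulate, 3 membrane sensors encoded by Atf6, Ern1 (IRE1) and Eif2ak3 (PERK) start the unfolded protein response. ATF6 and the spliced form of XBP1 then raise transcription of chaperone and degradation genes through ER stress response elements in promoters, and PERK slows translation and favours ATF4. The hepatocyte secretes much of the protein of blood plasma, so its ER is large. The deposited gene counts hold neither the spliced form of Xbp1 nor any protein, so the values below are mRNA levels and not a measure of ER stress.

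Total counts ran from 39916405 to 51340317 per library. Levels are in CPM, a gene's counts scaled by the library total after adjustment by edgeR's TMM scaling factors, which ran from 0.910 to 1.11. Replicates 1 to 4 of a group are given in that order, with means ± SD over n = 4. Differences are log2 fold changes ± SE from edgeR's quasi-likelihood test on all 14172 genes, and a gene is called changed when its Benjamini-Hochberg adjusted p over these genes is under 0.05. The defining hepatocyte genes were abundant, with Alb (albumin) at 69641 ± 5588 CPM in ND, 71566 ± 4553 in HFD and 61996 ± 9032 in HFD+MEC1. Plasma cells, which are rich in ER, left little trace: 8 plasma and B cell markers, led by Jchain and Cd79b, summed to 4.01 to 10.3 CPM in the 12 libraries, and Tnfrsf17 had 0 counts in each, where 3 counts correspond to 0.0590 to 0.0770 CPM. In bulk tissue, fewer cells of a type and less RNA per cell cannot be told apart. Nothing in the labels says that samples of a group came from different mice, so p-values measure the spread between these samples, which may be technical.

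Promoter sequences show which members carry the element that ATF6 and XBP1 are known to read. In RefSeq windows on GRCm38.p6, from 250 bases before to 50 bases after the gene start, 30 of the 37 members were present. Exact matches were searched on both strands to the ER stress response element (ERSE: CCAAT, 9 bases of any kind, CCACG) and to ERSE-II (ATTGG, 1 base, CCACG). ERSE was found in 9 of the 30 members (30%) and ERSE-II in 2 (6.67%), with no gene holding both, against 37 (0.137%) and 12 (0.0444%) of 27025 genes with a window. Among 102 other ER genes with a window, 3 (2.94%) held either element. Such elements were already known in chaperone and degradation genes, so the higher share among members is a description and not a test. The 11 genes were grouped by having a match, so that they share it is no separate result. The sites are printed below in the orientation of the element with both half-sites in capitals.
Hspa5 ERSE: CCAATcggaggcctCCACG
Hsp90b1 ERSE, distal: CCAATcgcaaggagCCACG
Hsp90b1 ERSE, proximal: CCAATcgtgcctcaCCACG
Dnajc3 ERSE: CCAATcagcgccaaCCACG
Creld2 ERSE: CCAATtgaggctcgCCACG
Calr ERSE: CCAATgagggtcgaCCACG
Canx ERSE: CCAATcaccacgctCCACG
Pdia6 ERSE: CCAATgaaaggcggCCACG
Syvn1 ERSE: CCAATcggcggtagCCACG
Derl3 ERSE: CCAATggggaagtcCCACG
Herpud1 ERSE-II: ATTGGgCCACG
Dnajb11 ERSE-II: ATTGGcCCACG

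By role, the elements were in 5 of 7 lumenal chaperone and co-chaperone genes with a window, both lectin genes, 1 of 6 isomerase genes and 3 of 8 degradation genes. None was found in 3 sensor and Xbp1 genes or in 4 translocon genes, which says only that these letters are not in the window. The ATF6 site TGACGTGG, which holds the reverse of the CCACG half-site, and the C/EBP-ATF site TGATGNAAT, read by CHOP and ATF4 with C/EBP proteins, had no match in the members' windows, against 0.714% and 1.08% of all genes. Of the 102 other ER genes with a window, 8 (7.84%) held the ATF6 site and 1 (0.98%) the C/EBP-ATF site. The windows of 4 genes follow, 220 bases up to the base before the RefSeq start on the gene's own strand, with ERSE or ERSE-II in capitals. GENCODE starts Hspa5 and Hsp90b1 further upstream, inside these windows. Hspa5 and Hsp90b1 are shown as the chaperone genes of this set with the element, Herpud1 as a degradation gene with ERSE-II, and Pdia5, whose levels differed between diets, as a gene without either.
Hspa5, chr2:34771870-34772089, plus strand: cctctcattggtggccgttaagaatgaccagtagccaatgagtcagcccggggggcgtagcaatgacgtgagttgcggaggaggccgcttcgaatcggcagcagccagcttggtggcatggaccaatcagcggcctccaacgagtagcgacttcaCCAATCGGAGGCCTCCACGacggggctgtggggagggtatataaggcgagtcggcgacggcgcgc
Hsp90b1, chr10:86705445-86705664, minus strand: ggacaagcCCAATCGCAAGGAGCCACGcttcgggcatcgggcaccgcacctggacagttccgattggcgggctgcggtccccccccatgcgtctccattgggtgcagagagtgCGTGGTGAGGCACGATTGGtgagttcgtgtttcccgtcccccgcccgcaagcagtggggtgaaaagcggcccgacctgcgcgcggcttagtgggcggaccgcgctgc
Herpud1, chr8:94386209-94386428, plus strand: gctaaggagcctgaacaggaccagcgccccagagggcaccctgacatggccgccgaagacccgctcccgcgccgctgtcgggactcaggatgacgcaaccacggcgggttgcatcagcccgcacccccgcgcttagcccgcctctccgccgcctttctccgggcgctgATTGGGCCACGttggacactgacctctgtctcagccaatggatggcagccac
Pdia5, chr16:35490874-35491093, minus strand: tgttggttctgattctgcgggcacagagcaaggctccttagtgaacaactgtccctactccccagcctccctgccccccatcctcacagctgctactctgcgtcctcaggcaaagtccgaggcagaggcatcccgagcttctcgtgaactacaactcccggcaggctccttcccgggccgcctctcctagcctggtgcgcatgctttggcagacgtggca

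**Figure D1:**
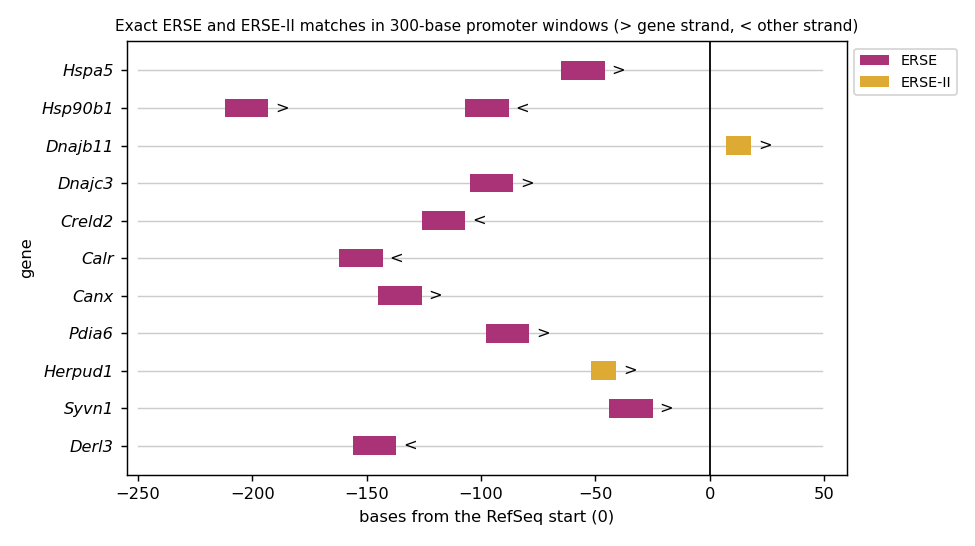
Position of each exact ERSE (purple) and ERSE-II (yellow) match in the promoter windows of 11 genes, in bases from the RefSeq start (0), with > for the gene's strand and < for the other. Every match but that of Dnajb11, which starts 7 bases after the start base, lies upstream, and Hsp90b1 has 2.

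Levels per length of transcript differed widely between members. In the deposited RPKM values, averaged over all 12 libraries, Hspa5 (376) and P4hb (373) stood highest, followed by Calr (307), Hsp90b1 (238), Herpud1 (159), Ppib (148), Pdia3 (141) and Pdia6 (123). These encode the ER chaperones BiP and GRP94, the disulfide isomerases P4HB, PDIA3 and PDIA6, the lectin calreticulin, the cyclophilin B isomerase and a membrane component of the degradation machinery. The lowest RPKM were those of Derl3 (3.24), Eif2ak3 (4.24), Ern1 (6.81), Edem3 (7.52) and Atf6 (8.28), so the 3 sensors were all among the 5 lowest. Xbp1, the transcription factor gene processed by IRE1, was at 63.8.

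On HFD against ND, the set as a whole stood where all genes stood: 19 of 37 members had a positive and 18 a negative difference, with a median log2 fold change of 0.02, beside -0.00 over all 14172 genes. Without ND replicate 2 the members' median was -0.06, and without HFD replicate 1 it was 0.06. By edgeR 2 members fell, Pdia5 and Ssr4 (5.41%, beside 6.3% of all tested genes called in either direction and 2.95% called lower), and 0 rose. At an unadjusted p under 0.05 there were 6 members (16.2%, beside 20.7% of all genes), 4 lower and 2 higher. HFD and ND libraries did not overlap for 5 members that were lower (Pdia5, Ssr4, Ppib, Xbp1 and Edem1; 6.81% of all genes) and for 1 that was higher (Derl2; 7.46% of all genes). Counted in either direction, the shares of members called and of members at an unadjusted p under 0.05 were no higher than those of genes in general. The share called lower was above that of all genes, though it rests on 2 members. Members without overlap in either direction were 16.2%, beside 14.3% of all genes.

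The comparison of HFD+MEC1 with HFD asks what the compound did on the same diet. Here 34 of 37 members had a positive difference, beside 7239 of 14172 genes, and the exceptions were Derl2, Ssr3 and Ern1. The median member difference was 0.22, beside 0.01 for all genes, and with single libraries left out it ran from 0.13 (without HFD+MEC1 replicate 2) to 0.28 (without HFD+MEC1 replicate 1). The positive count was 26 when library totals replaced the scaling factors, which moved the median of all genes to -0.05. By edgeR 0 members were called (0.0282% of all genes, or 4, were), and the smallest adjusted p was 0.0788, for Pdia5. At an unadjusted p under 0.05 there were 15 members (40.5%, beside 14.8% of all genes), of which 14 were higher and Derl2 was lower. DESeq2 called 2, Calr and Pdia5, and limma-voom called 0, given here without the shares of all genes called by these methods. Libraries did not overlap for 1 member that was higher, Hsp90b1 (3.13% of all genes), and 1 that was lower, Derl2 (3.98%).

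Without HFD+MEC1 replicate 1 edgeR called 8 members as higher: Calr, Derl3, Dnajb11, Pdia3, Pdia5, Pdia6, Ppib and Xbp1 (beside 3.20% of all genes called). Leaving out HFD replicate 4 gave 1, Pdia5, and leaving out each other HFD or HFD+MEC1 library gave 0. The shares of all genes called in these further fits are not given here. The calls in this comparison therefore turn on which libraries are used.

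Set against ND, HFD+MEC1 had positive differences for 30 of 37 members and the median was 0.14, beside 0.00 for all genes. By edgeR 1 member rose, Pdia4 (beside 4.54% of all genes called in either direction and 2.15% called higher), and 0 fell. At an unadjusted p under 0.05 there were 13 members (35.1%, beside 19.1% of all genes), 12 higher and Ssr4 lower. DESeq2 called 7, all higher: Derl3, Dnajc3, Herpud1, Hsp90b1, Pdia4, Sel1l and Syvn1. The share of all genes that DESeq2 called is not given here, so this count has no background beside it. No overlap was seen for Pdia4, Dnajc3 and Hsp90b1, which were higher (5.13% of all genes), and for Ssr4, which was lower (5.84%). The comparisons of HFD with ND and of HFD+MEC1 with HFD share the HFD libraries, and both comparisons with ND share the ND libraries, so their values for a gene are not independent.

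**Figure D2:**
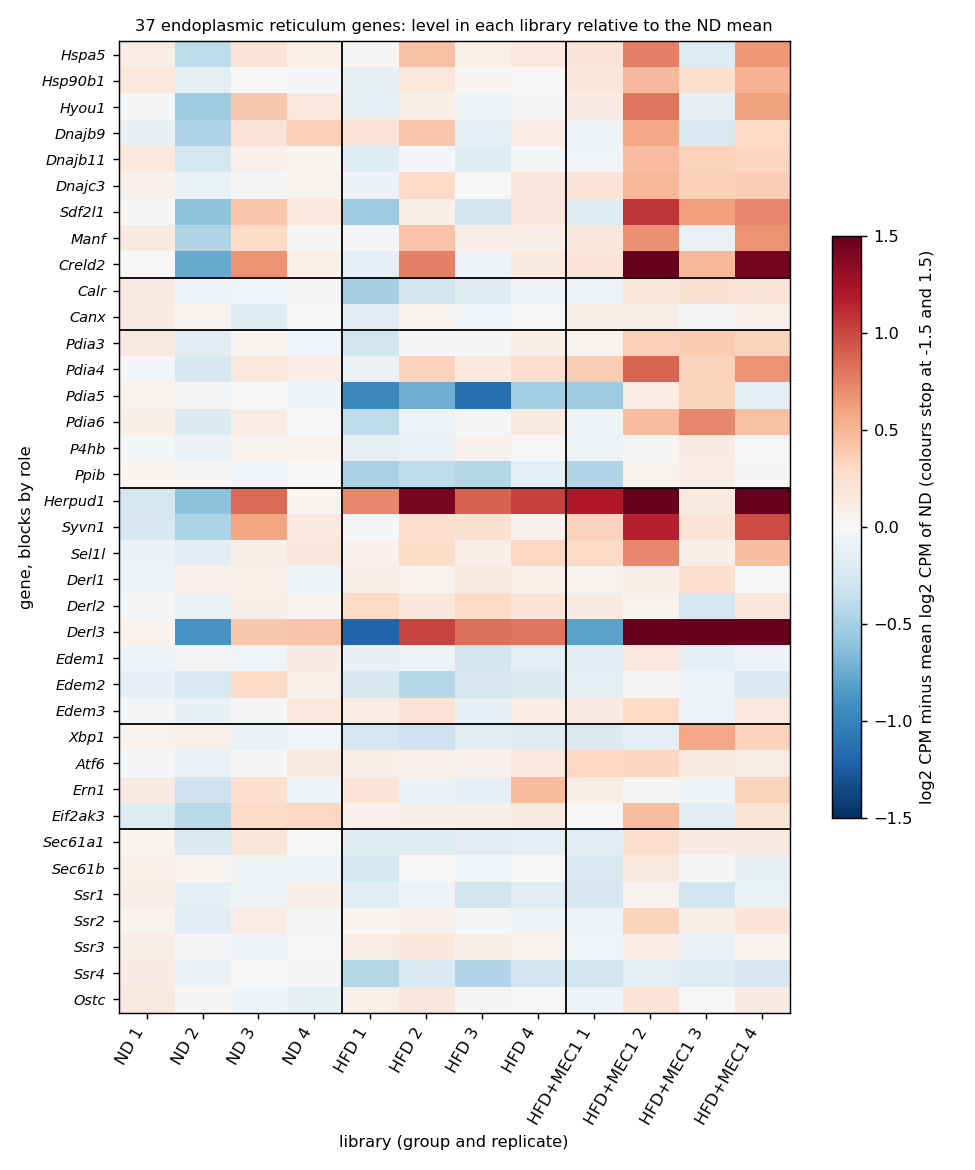
Level of each member (rows, in blocks by role) in each library (columns) as log2 CPM relative to the ND mean, red for higher and blue for lower, with colours stopped at -1.5 and 1.5. Red fills most rows of HFD+MEC1 replicates 2 and 4, while replicate 1 is pale and replicate 3 is red for some members and blue for others.

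**Figure D3:**
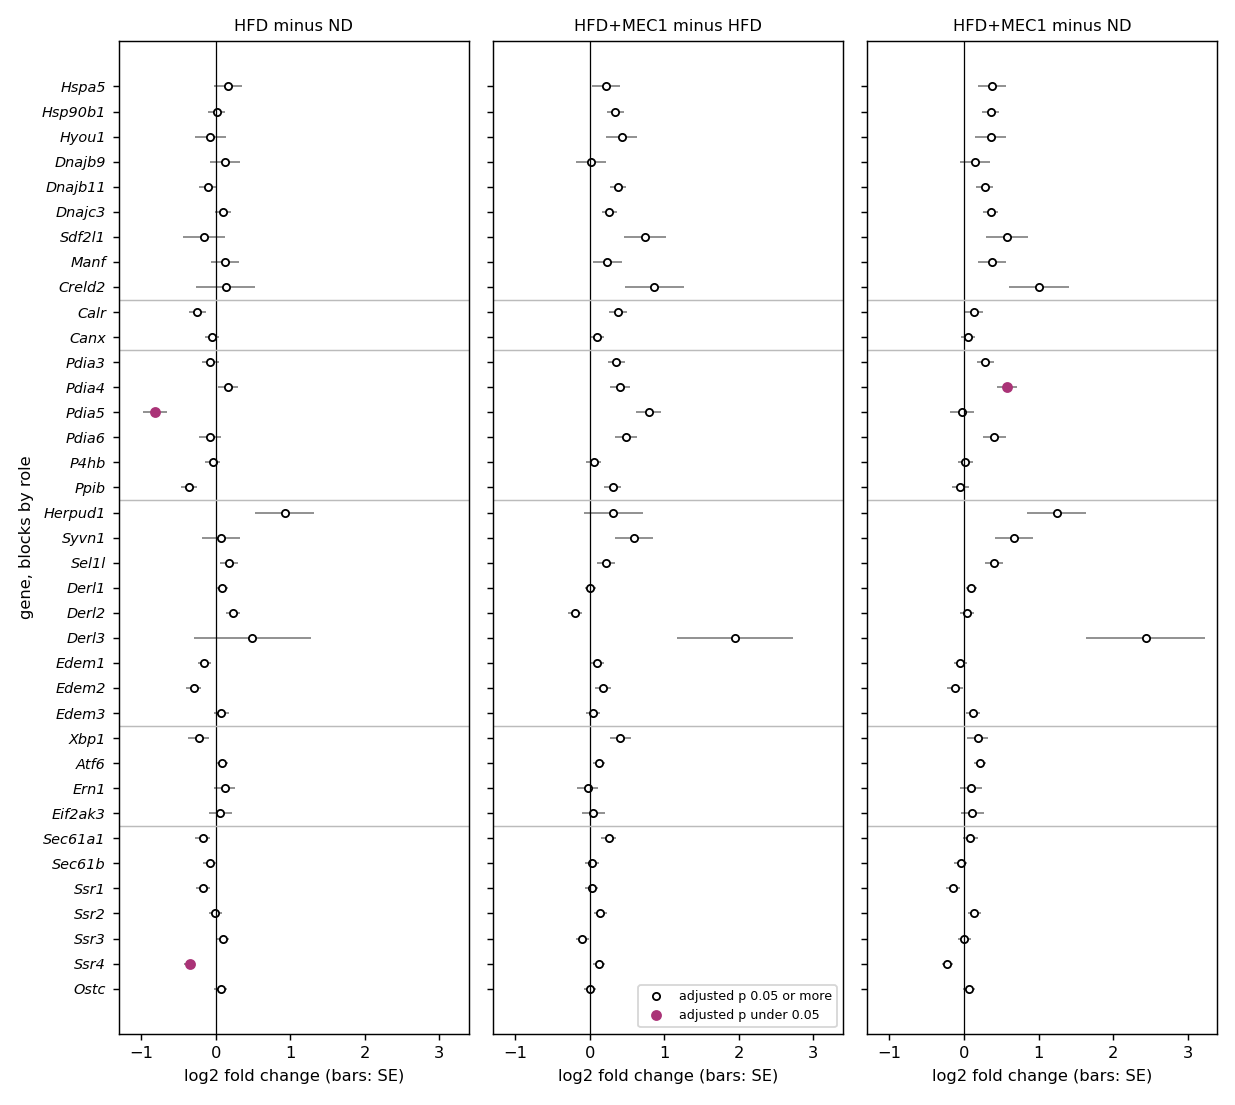
Log2 fold change with SE of each member in the 3 comparisons, filled where the adjusted p is under 0.05. Filled points are Pdia5 and Ssr4 in HFD minus ND and Pdia4 in HFD+MEC1 minus ND, and in the middle panel 34 of 37 points lie right of 0.

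Among 9 lumenal chaperones and co-chaperones, the summed level was 2823 ± 383 CPM in ND, 2989 ± 335 in HFD and 3656 ± 769 in HFD+MEC1. No member was called in any comparison by edgeR. All 9 differences of HFD+MEC1 from HFD were positive, with a median of 0.34. Of them 4 were at an unadjusted p under 0.05 (44.4%, beside 14.8% of all genes). For HFD against ND the median was 0.10, with 6 positive and 0 at that p (beside 20.7% of all genes).

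Hspa5 encodes BiP, the Hsp70 chaperone of the ER that also holds the sensors inactive (ENSMUSG00000026864.13; chromosome 2, 34771970 to 34777547, plus strand). Its level was 1165, 832, 1240.3 and 1136 CPM in the ND libraries, 1099, 1467, 1136 and 1205 in HFD and 1234, 1819, 943 and 1700.4 in HFD+MEC1. The difference of HFD+MEC1 from HFD was 0.22 ± 0.19 (adjusted p = 0.645) and that of HFD from ND 0.17 ± 0.19 (adjusted p = 0.676). With single libraries left out the first ran from 0.078 (without HFD+MEC1 replicate 2) to 0.37 (without HFD+MEC1 replicate 3), and the second from 0.050 (without ND replicate 2) to 0.23 (without ND replicate 3). HFD+MEC1 replicates 2 and 4 were above every other library, and replicate 3 of the same group was below every library but ND replicate 2, so the groups overlapped.

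Hsp90b1 encodes GRP94, the Hsp90 chaperone of the ER that helps fold a narrow set of secreted and membrane proteins (ENSMUSG00000020048.13; chromosome 10, 86690209 to 86705509, minus strand). It was at 846, 686, 762 and 751 CPM in ND, 704, 849, 767 and 759 in HFD and 853, 1065, 893 and 1087 in HFD+MEC1. Every HFD+MEC1 library was above every ND and HFD library, though by a narrow margin, 853 against 849 CPM. The difference was 0.34 ± 0.12 from HFD (adjusted p = 0.189), 0.36 ± 0.12 from ND (adjusted p = 0.0928) and 0.02 ± 0.12 between the diets, whose sign changed without ND replicate 2 or without HFD replicate 2. Of its exonic bases 10.3% overlap a gene on the opposite strand, and strand use in counting is not given in the sources used here.

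Dnajb11 and Dnajc3 encode J-domain partners of BiP, and DNAJC3 also restrains PERK. Dnajb11 was at 118, 88.4, 111 and 108 CPM in ND, 92.8, 105, 93.3 and 105 in HFD and 103, 146, 135 and 132 in HFD+MEC1 (0.38 ± 0.11 against HFD, adjusted p = 0.143). Dnajc3 was at 290.2, 259, 274 and 288 CPM in ND, 261, 338, 278 and 313 in HFD and 318, 393, 355 and 359 in HFD+MEC1 (0.36 ± 0.10 against ND, adjusted p = 0.0557). For Dnajb11, HFD+MEC1 replicates 2 to 4 were above all HFD libraries and replicate 1 was among them. For Dnajc3, all HFD+MEC1 libraries were above all ND libraries, and HFD libraries overlapped both groups.

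The other 5 genes of this role had wide spreads in HFD+MEC1 and nearly as wide spreads in ND. Their SD was 25.0 to 47.5% of the mean in HFD+MEC1, 20.7 to 39.1% in ND and 7.35 to 30.6% in HFD. The HFD+MEC1 maximum was in replicate 2 for each. Hyou1, an exchange factor of BiP, ranged over 154 to 295 CPM in ND, 202 to 240.2 in HFD and 205 to 391 in HFD+MEC1. Creld2, a stress-induced ER protein, ranged over 24.5 to 66.5, 37.6 to 70.0 and 47.6 to 135 CPM (0.87 ± 0.40 against HFD, adjusted p = 0.351). Sdf2l1, a stress-induced partner of J-domain proteins, ranged over 34.7 to 70.4, 36.0 to 59.2 and 46.3 to 110.5 CPM (0.74 ± 0.28 against HFD, adjusted p = 0.265). In all 3 genes HFD+MEC1 reached above the other groups and also overlapped them. Manf, a secreted stress protein, ranged over 98.0 to 165, 131 to 179 and 125 to 216 CPM. Dnajb9, a J-domain protein that represses IRE1, ranged over 84.4 to 149, 106 to 156 and 99.6 to 174 CPM, with a difference of 0.02 ± 0.20 between HFD+MEC1 and HFD.

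Calr and Canx encode calreticulin and calnexin, the lectins that retain glycoproteins until they fold. Calr was at 848, 741, 749.5 and 758 CPM in ND, 549, 637, 683 and 745 in HFD and 731, 876, 909 and 883 in HFD+MEC1. HFD+MEC1 replicates 2 to 4 were above every other library, replicate 1 was within the HFD range, and HFD replicate 4 (745 CPM) was within the ND range. Calr differed by -0.24 ± 0.12 between the diets (adjusted p = 0.246) and by 0.38 ± 0.12 between HFD+MEC1 and HFD (adjusted p = 0.159); DESeq2 called the second difference. Canx was even across groups, at 314 to 389.7 CPM in ND, 319 to 362 in HFD and 348 to 381 in HFD+MEC1, with a difference of 0.10 ± 0.09 between the last pair.

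The 6 genes of disulfide and proline isomerases included 2 of the 3 called values. Between the diets 5 differences were negative and 1 of them was called by edgeR (16.7%, beside 2.95% of all genes called lower). At an unadjusted p under 0.05 there were 2 (33.3%, beside 20.7% of all genes). All 6 differences of HFD+MEC1 from HFD were positive, with a median of 0.38 and 0 called. At that p there were 5 (83.3%, beside 14.8% of all genes).

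Pdia5 encodes a disulfide isomerase that acts on ATF6 among other substrates (ENSMUSG00000022844.8; chromosome 16, 35397312 to 35490873, minus strand). Its level was 61.1, 58.3, 59.2 and 56.7 CPM in ND, a tight group, 30.2, 35.4, 26.9 and 41.2 in HFD and 40.2, 63.3, 74.2 and 53.1 in HFD+MEC1. ND and HFD did not overlap, while HFD+MEC1 spanned both, with replicate 1 below the highest HFD library and replicates 2 and 3 above all ND libraries. Pdia5 fell by 0.82 ± 0.16 on the log2 scale on HFD (adjusted p = 0.00949), from 58.8 ± 1.87 to 33.4 ± 6.27 CPM, and this call held in all 18 alternative settings run. The difference of HFD+MEC1 from HFD was 0.79 ± 0.16 (adjusted p = 0.0788), which passed with DESeq2 (adjusted p = 0.00128), without HFD replicate 4 (0.0333) and without HFD+MEC1 replicate 1 (0.00747). That of HFD+MEC1 from ND was -0.03 ± 0.16 (adjusted p = 0.955).

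Pdia4 encodes an isomerase with several thioredoxin-like domains that is found in chaperone complexes with BiP (ENSMUSG00000025823.9; chromosome 6, 47796141 to 47813430, minus strand). It was at 221, 189, 249 and 239.7 CPM in ND, 208, 284, 248 and 269 in HFD and 291, 408, 283 and 356 in HFD+MEC1. All HFD+MEC1 libraries were above all ND libraries, and HFD libraries overlapped both groups. Pdia4 rose by 0.58 ± 0.13 in HFD+MEC1 against ND (adjusted p = 0.0215), and stood at 0.41 ± 0.13 against HFD (adjusted p = 0.177) and 0.17 ± 0.13 between the diets (adjusted p = 0.524). The call against ND was lost without ND replicate 1 (adjusted p = 0.0642), ND replicate 2 (0.0733), HFD+MEC1 replicate 2 (0.0632) or HFD+MEC1 replicate 4 (0.0597).

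Pdia3 encodes ERp57, which forms disulfides in glycoproteins bound to calnexin and calreticulin, and Pdia6 encodes an isomerase that also limits IRE1 signalling. Pdia3 was at 497, 402, 461 and 435 CPM in ND, 362, 437, 437 and 474 in HFD and 462, 571, 586 and 569 in HFD+MEC1 (0.36 ± 0.11 against HFD, adjusted p = 0.174). Pdia6 was at 326, 263, 328 and 303 CPM in ND, 233, 288, 299 and 334 in HFD and 289.6, 418, 501 and 411 in HFD+MEC1 (0.49 ± 0.15 against HFD, adjusted p = 0.157). For both genes HFD+MEC1 replicates 2 to 4 were above all other libraries and replicate 1 was inside the HFD range.

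Ppib encodes cyclophilin B, a proline isomerase important for collagen folding. It was at 203, 200.5, 193 and 199 CPM in ND, 141, 152, 148 and 179.6 in HFD and 147, 206, 214 and 202 in HFD+MEC1. All HFD libraries were below all ND libraries (-0.36 ± 0.11, adjusted p = 0.0720), and DESeq2 called this difference; HFD+MEC1 replicates 2 and 3 were above both groups, replicate 4 was within ND and replicate 1 within HFD (0.31 ± 0.11, adjusted p = 0.217). Of its exonic bases 25.0% overlap Snx22 on the opposite strand. P4hb, the disulfide isomerase that is also a subunit of collagen prolyl hydroxylase, differed little, at 1206 ± 55.5, 1176 ± 69.4 and 1219.8 ± 71.4 CPM in ND, HFD and HFD+MEC1 (0.05 ± 0.10 for the last pair).

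**Figure D4:**
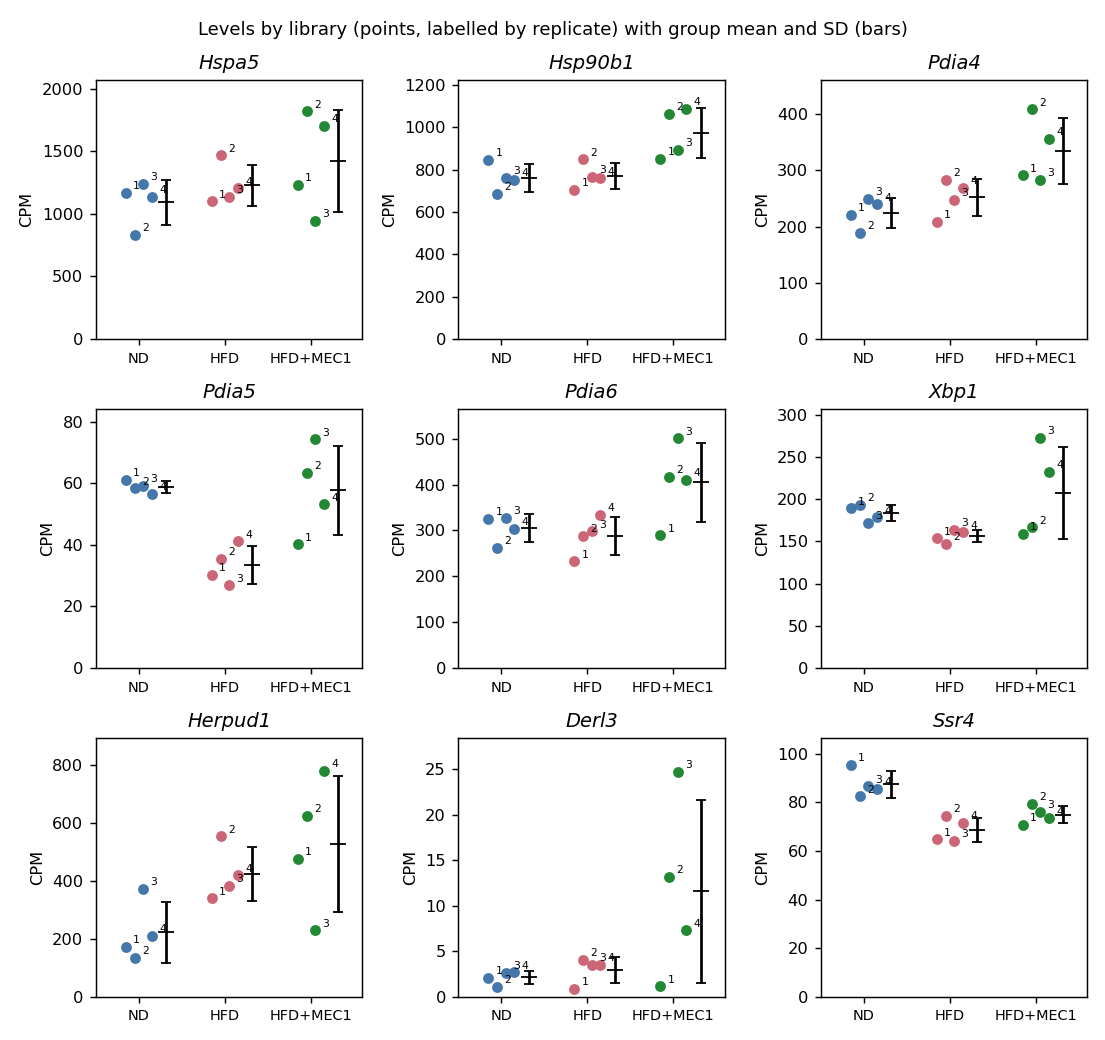
CPM of 9 members in each library (points, with replicate numbers) and the group mean with SD (bar), on axes that start at 0. HFD points lie below ND points for Pdia5, Xbp1 and Ssr4, and HFD+MEC1 replicates 2 and 4 exceed replicate 1 in each panel.

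Genes of ER-associated degradation, which recognise, move and ubiquitinate misfolded proteins, summed to 979.7 ± 158 CPM in ND, 1202 ± 110 in HFD and 1392 ± 315 in HFD+MEC1. Herpud1 made up most of the difference between the ND and HFD sums: the other 8 genes summed to 756.9 ± 61.0, 778.4 ± 19.2 and 864.2 ± 104 CPM. By edgeR 0 of 9 were called in any comparison. At an unadjusted p under 0.05 were 3, 3 and 4 in HFD against ND, HFD+MEC1 against HFD and HFD+MEC1 against ND. These were 33.3, 33.3 and 44.4%, beside 20.7, 14.8 and 19.1% of all genes. Herpud1 and Derl3 had the largest differences and wide replicate spreads.

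Herpud1 encodes a membrane protein that organises the HRD1 ubiquitin ligase complex (ENSMUSG00000031770.16; chromosome 8, 94386438 to 94395377, plus strand). It was at 173, 135, 373 and 210.3 CPM in ND, 339.8, 554, 382 and 419 in HFD and 477, 625, 229 and 779.9 in HFD+MEC1. ND replicate 3 stood within the HFD range, and HFD+MEC1 spanned from below the HFD minimum in replicate 3 to above all other libraries in replicate 4. The difference was 0.93 ± 0.40 between the diets (adjusted p = 0.220) and 1.24 ± 0.40 between HFD+MEC1 and ND (adjusted p = 0.116).

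Derl3 encodes a derlin, a channel component of retrotranslocation that is induced in ER stress (ENSMUSG00000009092.5; chromosome 10, 75893413 to 75895941, plus strand). Its level was low, at 2.08, 1.08, 2.66 and 2.69 CPM in ND, 0.872, 4.03, 3.55 and 3.51 in HFD and 1.14, 13.2, 24.7 and 7.29 in HFD+MEC1. HFD+MEC1 replicates 2 to 4 were above all 8 libraries of the other groups, replicate 3 by the widest margin, and replicate 1 was near the lowest ND and HFD libraries. The difference was 1.95 ± 0.77 from HFD (adjusted p = 0.290) and 2.44 ± 0.80 from ND (adjusted p = 0.125), with SEs that reflect this spread. Its paralog Derl2 was at 87.6, 83.7, 95.0 and 91.8 CPM in ND, 109, 101, 110.1 and 102 in HFD and 98.5, 93.1, 74.8 and 101 in HFD+MEC1. All HFD libraries were above all ND libraries (0.24 ± 0.09, adjusted p = 0.147) and, by a narrow margin, above all HFD+MEC1 libraries (-0.20 ± 0.09, adjusted p = 0.327). Derl1 ranged over 104 to 116 CPM in ND, 114 to 121 in HFD and 109.8 to 129 in HFD+MEC1.

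Sel1l encodes the adaptor of the HRD1 ligase and Syvn1 the ligase itself. Sel1l was at 140.4, 134, 159 and 168 CPM in ND, 157, 181, 161 and 185 in HFD and 184, 246, 159 and 205 in HFD+MEC1 (0.40 ± 0.12 against ND, adjusted p = 0.0733). HFD+MEC1 replicates 2 and 4 were above all ND and HFD libraries and replicate 3 was within the ND range. Syvn1 ranged over 53.1 to 112 CPM in ND, 72.9 to 88.0 in HFD and 85.2 to 165 in HFD+MEC1 (0.67 ± 0.26 against ND, adjusted p = 0.184). The EDEM proteins trim mannose from glycoproteins to mark them for removal. Edem2 was at 44.6, 41.3, 59.0 and 51.0 CPM in ND, 41.2, 35.9, 41.1 and 41.7 in HFD and 43.8, 49.0, 46.3 and 41.3 in HFD+MEC1 (-0.29 ± 0.10 between the diets, adjusted p = 0.111). ND replicate 3 was above all other libraries, and ND replicate 2 lay within the HFD range. Edem1 ranged over 211 to 239, 181 to 207 and 196 to 243 CPM and Edem3 over 55.5 to 67.1, 55.0 to 69.5 and 57.0 to 73.5 CPM in ND, HFD and HFD+MEC1.

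Of the genes for the 3 sensors and Xbp1, 0 of 4 were called by edgeR in any comparison. At an unadjusted p under 0.05 were 0, 1 and 1 in the order used above. These were 0, 25 and 25%, beside 20.7, 14.8 and 19.1% of all genes. Xbp1, whose spliced product drives chaperone and degradation genes (ENSMUSG00000020484.18; chromosome 11, 5520659 to 5525893, plus strand), was at 189, 193, 172 and 178 CPM in ND, 154, 147, 164 and 160.5 in HFD and 159, 167, 273 and 232 in HFD+MEC1. All HFD libraries were below all ND libraries (-0.23 ± 0.14, adjusted p = 0.375). HFD+MEC1 split: replicates 3 and 4 were above every other library and replicates 1 and 2 were near HFD (0.41 ± 0.14 against HFD, adjusted p = 0.188; 0.26 without replicate 3). Replicate 2, highest in its group for Hspa5, Creld2 and Pdia4, was thus not high for Xbp1.

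Atf6, the sensor that is cut in the Golgi to release a transcription factor, was at 71.4, 68.1, 71.1 and 79.4 CPM in ND, 76.8, 76.0, 75.5 and 81.0 in HFD and 89.9, 90.3, 80.0 and 77.4 in HFD+MEC1. HFD+MEC1 replicates 1 and 2 were above all other libraries, and the difference from ND was 0.22 ± 0.08 (adjusted p = 0.128). Ern1, the kinase and nuclease that splices Xbp1, was at 35.6, 26.1, 38.3 and 31.1 CPM in ND, 37.5, 30.5, 29.6 and 45.0 in HFD and 34.7, 32.7, 30.9 and 41.3 in HFD+MEC1, and its groups overlapped (-0.03 ± 0.15 against HFD, adjusted p = 0.946). Eif2ak3, the kinase that phosphorylates eIF2α, was at 21.4, 18.5, 29.8 and 30.1 CPM in ND, 25.5, 26.0, 26.0 and 26.8 in HFD and 24.4, 33.8, 21.7 and 27.9 in HFD+MEC1. Its HFD libraries were close together inside the range of both other groups (0.05 ± 0.15 against HFD, adjusted p = 0.918). For Ern1 and Eif2ak3 the sign of each of the 3 differences changed when some single libraries were left out, so no direction is given.

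The translocon and its partners include the Sec61 channel, the TRAP complex (Ssr1 to Ssr4) that assists entry of some proteins, and Ostc, which links the channel to the oligosaccharyltransferase. They summed to 845.4 ± 41.5 CPM in ND, 814.5 ± 24.8 in HFD and 839.2 ± 66.3 in HFD+MEC1. By edgeR 1 of 7 fell on HFD (14.3%, beside 2.95% of all genes called lower). For HFD+MEC1, 0 changed against HFD and 0 against ND. At an unadjusted p under 0.05 were 1, 1 and 1 (14.3% each, beside 20.7, 14.8 and 19.1% of all genes). Ssr4 (ENSMUSG00000002014.12; chromosome X, 73787028 to 73790830, plus strand) was at 95.4, 82.4, 86.7 and 85.5 CPM in ND, 64.8, 74.4, 64.3 and 71.5 in HFD and 70.9, 79.4, 76.2 and 73.4 in HFD+MEC1. Every ND library was above every library of both high-fat groups. Ssr4 fell by 0.35 ± 0.08 on the log2 scale on HFD (adjusted p = 0.0150) and stood at -0.22 ± 0.08 in HFD+MEC1 against ND (adjusted p = 0.121). The call was lost in 5 of 18 alternative settings. These were library totals as the scale (adjusted p = 0.119) and limma on log2(RPKM + 1) (0.0886) or log2(RPKM + 0.1). The others left out ND replicate 1 (0.0525) or HFD replicate 3 (0.0614).

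Sec61a1, the channel itself, was at 176, 147, 194 and 171 CPM in ND, 150.5, 151, 153 and 156 in HFD and 154, 203, 186 and 187 in HFD+MEC1. The HFD libraries were close together, and HFD+MEC1 replicates 2 to 4 were above them with replicate 1 among them (0.26 ± 0.10, adjusted p = 0.240). Ssr1 was at 139, 118, 124 and 138 CPM in ND, 115, 125, 107 and 116 in HFD and 109.8, 134, 106 and 121 in HFD+MEC1, and its groups overlapped (-0.17 ± 0.09 between the diets, adjusted p = 0.325). Sec61b ranged over 44.0 to 48.3, 38.0 to 45.7 and 39.0 to 50.7 CPM in the 3 groups and Ssr2 over 56.2 to 67.8, 59.8 to 65.6 and 59.9 to 79.5 CPM. Ssr3 ranged over 278 to 312, 302 to 328 and 274 to 315 CPM and Ostc over 50.6 to 60.4, 55.0 to 61.6 and 52.6 to 63.0 CPM. Each of these 4 genes overlapped between all groups.

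The HFD+MEC1 libraries did not move together. The members summed to 8532 ± 673 CPM in ND, 8632 ± 608 in HFD, and 8941, 11457, 9342 and 11125 CPM in HFD+MEC1 replicates 1 to 4. Above the highest HFD library stood 7 members in replicate 1 (18.9%, beside 18.8% of all genes), 32 in replicate 2 (86.5%, beside 25.0%), 17 in replicate 3 (45.9%, beside 28.9%) and 24 in replicate 4 (64.9%, beside 22.2%). Replicate 1 was thus like the HFD libraries by this count, and it was the lowest of its group for 19 members. This standing depends on the scaling factors. As a share of all counts, without these factors, members made up 0.982, 1.14, 0.912 and 1.06% in HFD+MEC1 replicates 1 to 4. The HFD libraries ran from 0.812 to 0.944% by that measure, so replicate 1 was above them and replicate 3 among them. Replicate 2 was the highest of its group for 23 members and the lowest for 0. The shares of all genes highest or lowest in each HFD+MEC1 replicate are not given. Such counts, here and below, thus have no background beside them.

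Within HFD+MEC1, replicate 1 was the highest for 1 member and the lowest for 19, and replicate 4 for 4 and 3. Replicate 3 was the highest for some members and the lowest for others, also within a role. It was the highest of its group for 9 members (Calr, Pdia3, Pdia5, Pdia6, P4hb, Ppib, Derl1, Derl3 and Xbp1) and the lowest for 15 (Hspa5, Hyou1, Dnajb9, Manf, Canx, Pdia4, Herpud1, Syvn1, Sel1l, Derl2, Edem3, Ern1, Eif2ak3, Ssr1 and Ssr3). Acute phase genes, which hepatocytes raise in inflammation, had their highest sum in this library. Over 21 genes the sum was 22266, 46610, 115791 and 43413 CPM in HFD+MEC1 replicates 1 to 4. It ran from 20584 to 35897 in HFD and from 30988 to 38610 in ND. By edgeR 0 of the 21 were called in HFD+MEC1 against HFD. Of 21 differences 21 were positive and 13 were at an unadjusted p under 0.05 (61.9%, beside 14.8% of all genes). C3, the complement gene that had the smallest p of the list, was at 4632, 7119, 12386 and 6767 CPM in HFD+MEC1 and at 3544 to 5056 CPM in HFD (0.90 ± 0.23, adjusted p = 0.108). Replicate 1, low for the ER members in scaled CPM, was also lowest of its group for the acute phase sum. The part of these genes in the results for the ER members was not tested. Without replicate 3, 34 of 37 members were still positive against HFD, 0 were called and 18 were at an unadjusted p under 0.05. Without replicate 2 these counts were 29, 0 and 9. The shares of all genes in the fits without replicate 3 or replicate 2 are not given here, so these counts have no background beside them.

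**Figure D5:**
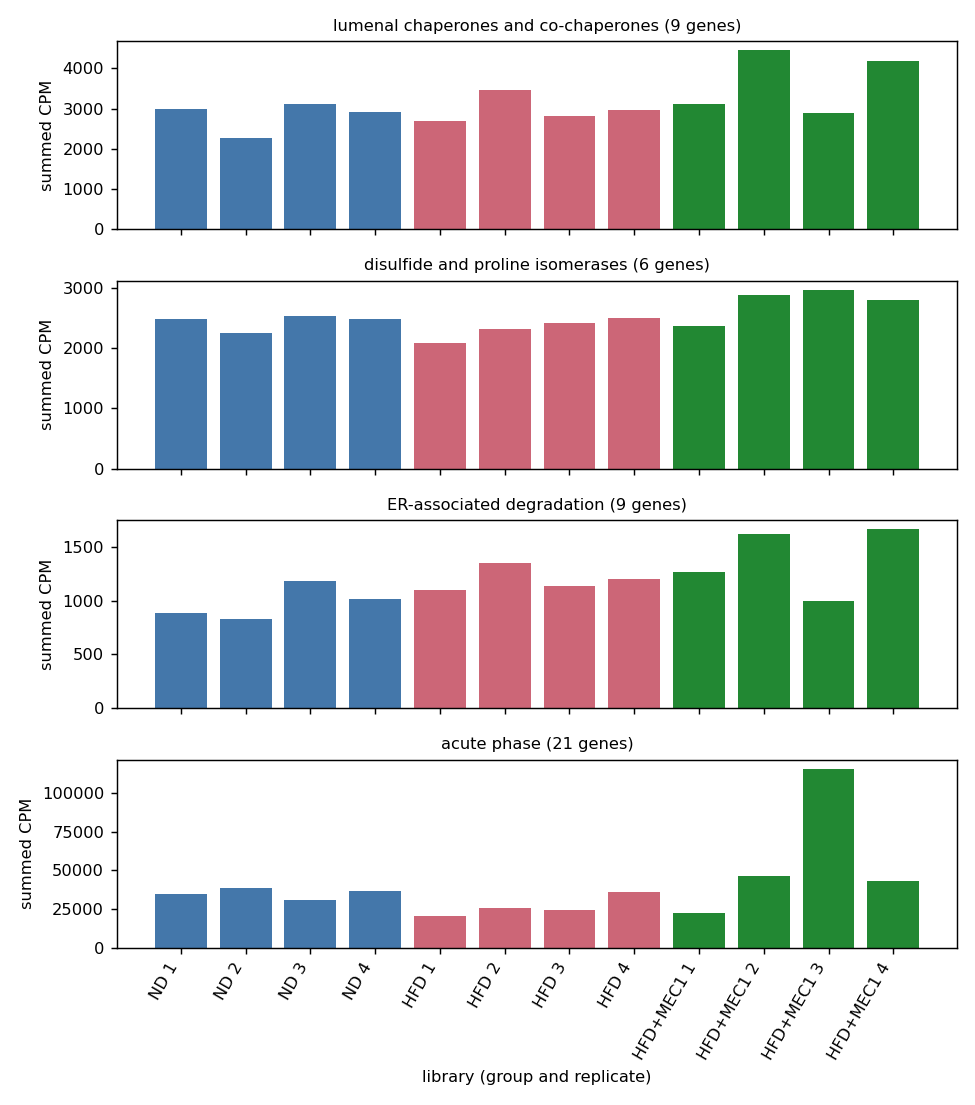
Summed CPM of 3 roles of ER genes and of 21 acute phase genes in each library (blue ND, red HFD, green HFD+MEC1), on axes that start at 0. In HFD+MEC1, chaperones and degradation genes are high in replicates 2 and 4, isomerases in replicates 2 to 4, and acute phase genes in replicate 3.

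Replicate spread differed between members and groups. The median coefficient of variation over members was 8.90% in ND, 8.40% in HFD and 12.8% in HFD+MEC1, beside 14.1, 13.8 and 15.1% over all genes. Genes were not matched for abundance, so these medians do not show that members were steadier than genes of like level. The coefficient of variation exceeded 20% for 9, 5 and 12 members. Ppib in ND (2.12%), Sec61a1 in HFD (1.69%) and Canx in HFD+MEC1 (3.92%) varied least. Herpud1 in ND (47.0%) and Derl3 in HFD (47.9%) and HFD+MEC1 (86.6%) varied most. ND replicate 2 was the lowest of all 12 libraries for 18 members. The share of all genes lowest in that library is not given here, so this count has no background beside it.

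The differences of HFD+MEC1 from HFD are given for members with and without an ERSE or ERSE-II match as a description, with no test. The 11 with a match had a median of 0.38, all 11 positive and 7 at an unadjusted p under 0.05; the 19 with a window and no match had a median of 0.10, with 16 positive and 7 at that p. The 7 without a window had a median of 0.14. Over all genes 14.8% were at an unadjusted p under 0.05 in this comparison. In HFD against ND the medians were 0.08 with and -0.07 without a match, and in HFD+MEC1 against ND 0.38 and 0.04. Pdia5 (0.79), Sdf2l1 (0.74), Pdia4 (0.41) and Xbp1 (0.41) held neither element in the window and had differences from HFD above the median of the 11 that did.

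Other genes of the same pathways were counted from 6 lists with 125 tested genes. By edgeR 4 rose and 1 fell in HFD against ND (4% called, beside 6.3% of all genes). In HFD+MEC1 against HFD 0 were called, and 23 were at an unadjusted p under 0.05 (18.4%, beside 14.8% of all genes). In HFD+MEC1 against ND 4 rose and 1 fell (4% called, beside 4.54% of all genes). Of the 125, 83 were positive in HFD+MEC1 against HFD (66.4%, beside 51.1% of all genes), with a median of 0.07. The glycosylation list (24 genes) had 2 higher on HFD (8.33%, beside 6.3% of all genes called in either direction). Pgm3, an enzyme that makes the UDP-N-acetylglucosamine used in glycans, rose from 21.4 ± 1.97 CPM in ND to 43.7 ± 3.20 in HFD (1.03 ± 0.09, adjusted p = 3.19e-05) and was at 43.4 ± 3.28 in HFD+MEC1 (1.02 ± 0.09 against ND, adjusted p = 3.32e-05). Tusc3, an oligosaccharyltransferase subunit, rose from 10.5 ± 1.91 to 14.8 ± 1.42 CPM (0.50 ± 0.13, adjusted p = 0.0337). Against HFD the smallest p of this list in HFD+MEC1 was that of Ganab, glucosidase II, at 0.29 ± 0.08 (adjusted p = 0.124).

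In the ER export list (24 genes) 2 rose on HFD (8.33%, beside 6.3% of all genes called in either direction). Sec23a, a coat component of export vesicles, rose by 0.44 ± 0.08 (adjusted p = 0.00327), and Tango2 by 0.50 ± 0.10 (adjusted p = 0.00899). Sec23a was also higher in HFD+MEC1 than in ND (0.32 ± 0.08, adjusted p = 0.0255). Against HFD, Sar1b, the GTPase of these vesicles, stood at -0.36 ± 0.11 (adjusted p = 0.155). In the translocation list (18 genes) Spcs2, a signal peptidase subunit, fell by 0.28 ± 0.08 on HFD (adjusted p = 0.0469), and Srpr, a signal recognition particle receptor, stood at 0.25 ± 0.09 against HFD (adjusted p = 0.200). The lists of other folding enzymes (24 genes) and other degradation genes (19 genes) had 0 calls in each comparison. At an unadjusted p under 0.05 they had 4, 3 and 1 and 2, 1 and 2 genes. Over all genes 20.7, 14.8 and 19.1% were at that p. Qsox1, which forms disulfides in the secretory pathway, stood at 0.71 ± 0.21 in HFD+MEC1 against HFD (adjusted p = 0.150), and the lectin gene Os9 at -0.32 ± 0.10 on HFD against ND (adjusted p = 0.0750).

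Among 16 stress transcription factors and proteases, 0 were called in HFD against ND or in HFD+MEC1 against HFD. At an unadjusted p under 0.05 were 2 (12.5%, beside 20.7% of all genes) and 5 (31.25%, beside 14.8%). HFD+MEC1 against ND had 2 that rose and 1 that fell (18.75% called, beside 4.54% of all genes). Creb3l3, a liver factor cut in the Golgi as ATF6 is, rose from 192 ± 22.4 to 276 ± 38.7 CPM (0.53 ± 0.11, adjusted p = 0.0116). Its relative Creb3 rose by 0.45 ± 0.11 (adjusted p = 0.0242). Atf6b, the paralog of Atf6, had the smallest p against HFD, at 0.45 ± 0.11 (adjusted p = 0.101).

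The integrated stress response, which PERK and other kinases start, had targets on both sides in both high-fat groups. By edgeR 3 of 19 tested targets fell and 0 rose on HFD (15.8% called, beside 6.3% of all genes). The same counts held for HFD+MEC1 against ND (beside 4.54% of all genes), and 0 were called in HFD+MEC1 against HFD. At an unadjusted p under 0.05, 6 were higher and 4 lower on HFD (52.6%, beside 20.7% of all genes). In HFD+MEC1 against ND 4 were higher and 5 lower (47.4%, beside 19.1%). In HFD+MEC1 against HFD 0 were higher and 2 lower (10.5%, beside 14.8%). Atf4, the central transcription factor, was at 98.4 ± 18.5 CPM in ND, 68.7 ± 4.13 in HFD and 64.7 ± 8.13 in HFD+MEC1, and fell by 0.52 ± 0.12 (adjusted p = 0.0155) and 0.61 ± 0.12 (adjusted p = 0.00782). Cth, an enzyme of cysteine synthesis, fell by 0.60 ± 0.16 (adjusted p = 0.0313) and 0.91 ± 0.16 (adjusted p = 0.00428), and Ppp1r15b, a subunit of the eIF2α phosphatase, by 0.36 ± 0.10 (adjusted p = 0.0354) and 0.38 ± 0.10 (adjusted p = 0.0356). The list's median on HFD against ND was 0.47, with 13 of 19 positive. Ddit3, which encodes CHOP, was at 6.28, 3.42, 6.82 and 3.58 CPM in ND, 7.99, 11.5, 6.76 and 8.32 in HFD and 8.14, 13.2, 5.16 and 9.24 in HFD+MEC1 (0.79 ± 0.29 on HFD, adjusted p = 0.140); it is named outside the naming rule as a usual readout of PERK. Atf3, another target, had the smallest p against HFD, at -1.09 ± 0.25 (adjusted p = 0.101).

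Markers of hepatocytes and of 8 other cell types had 0 calls by edgeR between HFD+MEC1 and HFD. At an unadjusted p under 0.05 were 3 of 10 hepatocyte, 2 of 14 macrophage, 1 of 10 stellate and 2 of 7 cholangiocyte genes. The other 5 lists had 0. Over all genes 14.8% were at that p, with 20.7% in HFD against ND and 19.1% in HFD+MEC1 against ND. On HFD against ND Gpnmb (macrophage) rose and Cps1 (hepatocyte) fell. In HFD+MEC1 against ND Cd163 (macrophage) and Clec4g (endothelial) rose and Epcam (cholangiocyte) and Cps1 fell. These genes were named after their values were seen. Of the 10 hepatocyte genes 4 were positive and 6 negative on HFD, and 5 and 5 in HFD+MEC1 against ND. In the latter comparison 9 of 9 endothelial genes were positive, and of 7 cholangiocyte genes 1 was positive and 6 were negative. The summed macrophage list (14 genes, most abundant Cd5l and Clec4f) was 422.1 ± 64.4 CPM in ND, 519.9 ± 124 in HFD and 583.4 ± 76.4 in HFD+MEC1, and its members were positive in 13, 11 and 14 of 14 cases in HFD against ND, HFD+MEC1 against HFD and HFD+MEC1 against ND, with 6, 2 and 8 at an unadjusted p under 0.05. The sinusoidal endothelial list (9 genes, led by Clec4g and Stab2) summed to 305.9 ± 57.6, 344.0 ± 29.3 and 374.3 ± 29.1 CPM, and the stellate list (10 genes, led by Dcn and Reln) to 302.5 ± 59.6, 274.2 ± 87.4 and 254.9 ± 61.4 CPM. Neutrophil markers (S100a9 and S100a8 the most abundant) summed to 2.14 to 14.4 CPM and T and NK cell markers (Nkg7 and Cd3g) to 1.27 to 3.80 CPM over the 12 libraries. Cholangiocyte markers (Spp1 the most abundant) summed to 49.6 to 103.9 CPM, and pancreatic acinar markers (Cela1 and Amy2a5) to 15.6 to 34.8 CPM with 3 of 10 at 0 in every library. The part of these cells in the values of the ER members was not tested.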

How the data were processed

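Total RNA of flash-frozen mouse liver was sequenced in 12 libraries; titles gave each sample's group and replicate number. The authors deposited 1 table of raw counts by gene symbol per sample and a table of RPKM values, per the file headers. STAR 2.7.10a and mm10 are named in the submitters' processing notes; the counting tool, annotation, strand use and filters are not given in the sources used here. In each library 70.1 to 74.7% of counts from 1 to 20 were even, so counting error may exceed what the totals give. The RPKM table held 12 more columns that match no sample; they were not used. Replicates differed beyond counting noise (lowest chi-square per gene 35.3).

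Genes were filtered with filterByExpr of edgeR 4.0.16 (R 4.3.3), which left 14172 genes with 99.98% of counts, and scaled by TMM. One quasi-likelihood model with robust dispersions was fitted to all 3 groups (common biological coefficient of variation 0.200); all tests were two-sided. CPM used TMM-adjusted totals, with a prior count of 2 for logarithms. The script was tested on simulated data. Alternatives used DESeq2 1.42.0, limma 3.58.1 (voom, and log2(RPKM + 1) or log2(RPKM + 0.1)), other scalings, no filter, a replicate block, and each library left out in turn. Coordinates are from GENCODE M21, promoters from RefSeq (GRCm38.p6).

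The members and all lists were chosen with earlier results of these data known. Every library's value was given for members called in any comparison, the 10 members with the smallest unadjusted p in each, and Hspa5, Hsp90b1, Xbp1, Atf6, Ern1 and Eif2ak3; from other lists, called genes (at most 4 a list and comparison) or the 1 with the smallest p, and from cell marker lists the 2 most abundant. Some genes that this rule names are not reported here.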

Additional observations from a re-analysis of the deposited data

Results flagged for a closer look

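In each group of 4 libraries the highest or lowest value was examined for a gap to its nearest neighbour that, as a share of the group's range, passed Dixon's 95% critical value. Of 117 groups examined 6 passed, where chance gives 5.85, so the number of such values is close to that. ND replicate 1 was high for Calr (848 CPM) and ND replicate 4 for Edem1 (239 CPM). HFD replicate 1 was low for Derl3 (0.872 CPM) and Sec61b (38.0 CPM), HFD replicate 2 for Edem2 (35.9 CPM), and HFD+MEC1 replicate 1 for Pdia3 (462 CPM).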

How the results depend on the processing

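Over 18 alternative settings per comparison, the 43 named member differences gave 774 values: 720 kept their direction and side of the threshold, 9 lost a call, 31 gained one and 14 changed sign. The main counts of called members were 2, 0 and 1 for HFD against ND, HFD+MEC1 against HFD and HFD+MEC1 against ND. In HFD against ND the count was 1 with library totals and 1 with limma on either RPKM scale, and 1 to 3 with 1 library left out; library totals moved the members' median to 0.14 and that of all genes to 0.12, and the share of higher genes among all calls from 53.2 to 79.5%. In HFD+MEC1 against HFD it was 2 with DESeq2 and 0 to 8 with 1 library left out. In HFD+MEC1 against ND it was 3 with library totals, 7 with DESeq2, 3 with limma on either RPKM scale, and 0 to 5 with 1 library left out. The shares of all genes called in the same settings are not given beside these counts. The labels state no pairing by replicate number. Correlations of same-number libraries ran from -0.09 to 0.13 over 12 pairs, beside -0.30 to 0.17 for different-number libraries. Of 12 libraries, 4 correlated best with their own number. These values do not settle whether equal numbers pair samples. The fit with the replicate block gave 2, 0 and 1 calls, as without it. Sign changes were seen in 3 genes. Eif2ak3 in HFD+MEC1 against HFD was -0.0051 with library totals. With 1 library left out, HFD against ND ranged from -0.062 to 0.16 for Eif2ak3, -0.036 to 0.066 for Hsp90b1 and -0.012 to 0.20 for Ern1. HFD+MEC1 against HFD ranged from -0.076 to 0.15 for Eif2ak3 and -0.12 to 0.10 for Ern1, and HFD+MEC1 against ND from -0.018 to 0.22 for Eif2ak3 and -0.0049 to 0.17 for Ern1. The cause was not tested.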
